A study of Mus musculus with 19 samples.

Results

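E0771 tumors from obese mice were compared between day 21 (endpoint) and day 14 (midpoint) after implantation. All sequenced libraries of both obese groups were used, 5 at each day, which makes 10 of the 19 libraries of the series. E0771 is a mouse mammary carcinoma line, here carrying the red fluorescent protein mCherry. Cells were placed in a mammary fat pad of c57bl6 mice that were obese or lean, tumors were dissociated, mCherry-positive cells were sorted by flow cytometry and their RNA was sequenced. The sample names call the obese mice HFD and the lean mice Chow. The labels give neither the age nor the sex of the mice, and all tumors came from 1 cell line. Lean tumors of the same days, with 4 libraries at each day, were compared at the end. Those libraries also entered the fits behind the obese tests, through the filter on genes, the scaling, the shared spread and the GC trend. Lean endpoint replicate 4 held counts for 3090 of 3090 well-covered genes on chromosomes 1 to 4 and for 0 of 8411 on chromosomes 6 to 19, X and M, and it was left out.

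A tumor of this line grows over these weeks from a small graft into a mass in which supply of oxygen and nutrients, immune infiltration and matrix can all change, and cells at either stage can include cycling, stressed and interferon-exposed states. Heat shock proteins refold damaged proteins, interferon-stimulated genes answer viral and inflammatory signals, and immediate early genes are induced quickly by growth factor or stress signals. Mitochondrial respiration rests on complexes that are encoded partly by the mitochondrial genome and mostly by nuclear genes.

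The sequencing libraries of both days differed in how their counts followed the GC content of genes. Within a library, the deviation of log2 CPM (CPM, the scaled share of a library's counts, with a prior count of 2) from the gene's mean over the groups followed the GC content of the gene's exons. For a rise of 10 points in GC, this deviation changed by a slope of 0.356, 1.60, 1.28, 0.702 and 1.07 in the day 14 libraries. It was -0.748, -0.421, -0.659, -0.858 and -0.900 in the day 21 libraries. The days did not overlap, and their means differed by -1.72 (exact two-sided permutation p = 0.00794, no split of the 252 can give less; adjusted p = 0.00992 across 5 library measures). Transcripts of the mitochondrial genome took 5.79% to 8.06% of the counts at day 14 and 17.1% to 24.4% at day 21, and genes with at least 1 count numbered 18426 to 19794 and 20009 to 21017. The 7SK RNA gene Rn7sk took 2.15% to 6.68% and 0.999% to 1.76%. These 3 measures gave the same exact p and adjusted p as the slope. Ribosomal RNA of the mitochondrial genome made up most of the mitochondrial share. It took 3.58% to 5.74% of the counts at day 14 and 13.8% to 21.2% at day 21, and was not tested. Total counts per library ranged from 44174080 to 56717154, and the first principal component of the 10 libraries held 79.4% of the variance. GC content and day could not be told apart across libraries, so every gene was tested without and with removal of each library's GC trend.

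**Figure D1:**
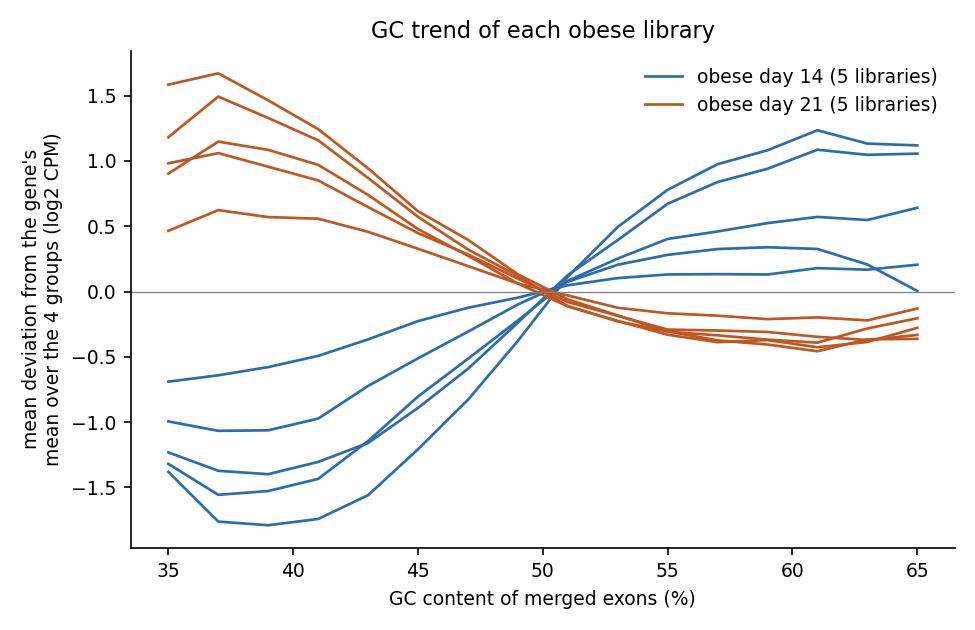
Mean deviation of log2 CPM from each gene's mean over the 4 groups (y axis) against the GC content of merged exons in percent (x axis), 1 line per obese library, 5 at day 14 and 5 at day 21. The day 14 lines run upward with GC (slopes 0.356 to 1.60) and the day 21 lines downward (slopes -0.900 to -0.421).

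Of 16352 genes tested with edgeR's quasi-likelihood test, 12091 passed an adjusted p of 0.05 in the unadjusted fit: 6183 were higher at day 21 (37.8% of the genes tested) and 5908 lower (36.1%). With the GC trend removed, 9089 passed, 6209 higher (38%) and 2880 lower (17.6%). The direction of the unadjusted change followed GC content. Among 930 genes below 40% GC the median log2 fold change was 2.69 and 88.3% were called higher, whereas among 2474 genes at or above 56% GC it was -1.14 and 76.2% were called lower. After adjustment these medians were 0.79 and 0.20. The adjustment moved the median of all genes from -0.00 to 0.28 on the log2 scale. Scaling factors taken again after the adjustment, a choice made after seeing the data, put it at 0.02 and gave 4768 higher and 4556 lower genes, so that the higher share of the calls was 51.1% unadjusted, 68.3% adjusted and 51.1% adjusted and rescaled.

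**Figure D2:**
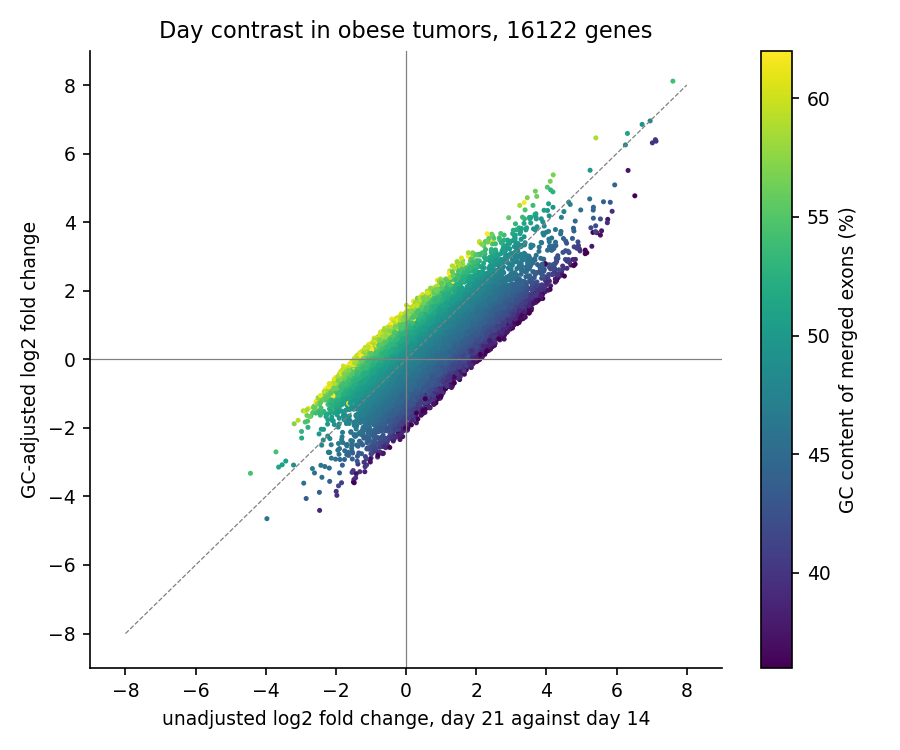
Log2 fold change of day 21 against day 14 without adjustment (x axis) and with the GC trend removed (y axis) for 16122 genes with a GC value, coloured by GC content in percent, with the dashed line marking equal values. Genes of low GC lie below the dashed line and genes of high GC above it, with a median change of 2.69 below 40% GC that became 0.79 after adjustment.

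The fits agreed on 4539 genes that were called higher at day 21 in both (27.8% of the genes tested) and on 2008 that were called lower in both (12.3%). After rescaling, 3944 of the 4539 and 2008 of the 2008 were still called in that direction. Rescaling lowered the median change of all genes from 0.28 to 0.02. It could take calls from higher genes but hardly from lower ones, so the count of lower genes was no check of them. In what follows, "rose" and "fell" are used only of genes called in the same direction in both the unadjusted and the GC-adjusted fit, and fold changes are given as log2 values in that order. The genes that rose had a median GC of 45.6% and a median exon length of 4282 bases, and those that fell 49.9% and 2285 bases, against 49.6% and 3062 bases for all genes tested. A further 510 genes were called lower without and higher with the adjustment, 202 the other way round, and 3390 lower and 1442 higher calls were lost under it. Serpinh1, the collagen chaperone, ranged from 1020 to 2183 CPM at day 14 and from 704 to 900 CPM at day 21, with changes of -0.86 ± 0.19 (SE) and 0.40 ± 0.13. B2m, the light chain of MHC class I, ranged from 3138 to 4458 CPM at day 14 and from 5964 to 7054 CPM at day 21, with changes of 0.71 ± 0.21 and -1.03 ± 0.20. Myh9, the heavy chain of nonmuscle myosin, Col4a1, a basement membrane collagen, Rad23b, a DNA repair factor, and mt-Co1 also had opposite calls, and no direction is given for these genes. Serpinh1, Myh9 and Col4a1 were not called after rescaling (adjusted p = 0.385, 0.166 and 0.357).

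The sorted cells were checked against markers. Vim, the intermediate filament of mesenchymal-like cells, was at 3880 to 6430 CPM at day 14 and 4770 to 5670 CPM at day 21. The summed carcinoma markers were at 4340 to 7200 and 5880 to 6630 CPM. Vim is on that list and made up most of the sum, so the sum adds little to it. Krt8, an epithelial keratin, was at 34.5 to 64.8 and 17.5 to 23.1 CPM, whereas its usual partner Krt18 stayed at or under 0.0975 CPM in all 10 libraries and Krt19 and Pgr had no count in any of them. Epcam was at or under 0.166 CPM and Cdh1, the epithelial cadherin, at or under 0.183 CPM. The 9 pan-leukocyte markers summed to 1230 to 1890 CPM at day 14 and 709 to 1010 CPM at day 21. Arhgdib alone made up most of that sum, with 1110 to 1750 CPM at day 14 and 580 to 688 CPM at day 21. Their mean log2 CPM was 4.16 ± 0.27 (SD, n = 5) and 4.2 ± 0.76 (SD, n = 5), with an exact two-sided permutation p of 0.937 (adjusted p = 0.937). The day 21 mean held 1 library, replicate 4, at 5.49, beside 3.54, 3.89, 3.91 and 4.15 in the others. The day 14 libraries lay between 3.98 and 4.64, and the test was not repeated without replicate 4. Obese endpoint replicate 4 also had the highest CPM of several myeloid genes. The changes of Spic and Itgam and the unadjusted change of Ptprc are given with and without it. Marker sums and means are given only with it.

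Dcn, Lum, Dkk2 and Il33 were among the 10 largest increases. Dcn and Lum encode decorin and lumican, small leucine-rich proteoglycans that bind collagen fibrils. Dcn (chromosome 10, 97479500 to 97518162) was at 0.677, 0.232, 0.585, 1.64 and 0.722 CPM at day 14 and at 12.9, 15.1, 49.6, 39.8 and 36.1 CPM at day 21. Every day 21 library was above every day 14 library, and the log2 fold changes were 5.29 ± 0.56 (SE, n = 5 and 5, adjusted p = 4.41e-07) and 3.30 ± 0.49 (adjusted p = 1.64e-05). Lum (chromosome 10, 97565501 to 97572703), its neighbour on the chromosome, was at 0.258, 0, 0.195, 0.511 and 0.108 CPM at day 14 and at 2.98, 4.35, 17.5, 13.1 and 9.15 CPM at day 21. Its changes were 5.40 ± 0.64 and 3.89 ± 0.57 (adjusted p = 9.01e-07 and 1.35e-05), and without obese midpoint replicate 4 the first was 5.996. Both genes are also markers of fibroblasts. Of the 12 fibroblast markers, 4 rose and 2 fell, beside 27.8% and 12.3% of all genes. Their summed level was 1540 to 3240 CPM at day 14 and 1950 to 3300 CPM at day 21, and the part of such cells in these changes was not tested. In bulk RNA a change in the number of cells of a type and a change in RNA per cell cannot be told apart. The collagen genes on that list differed among themselves. Col3a1, the most abundant of them in CPM, was at 855 to 2370 CPM at day 14 and 1320 to 2330 CPM at day 21, and the days overlapped. Col1a2 fell from 4.82 to 8.19 CPM at day 14 to 1.77 to 4.48 CPM at day 21 (log2 changes -1.07 ± 0.37 and -2.08 ± 0.39, adjusted p = 0.0126 and 0.000188). Col1a1 was at 7.33 to 16.9 CPM and 1.63 to 4.02 CPM and was called lower only without the GC adjustment (adjusted p = 0.000242 and 0.138).

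Dkk2, a secreted modulator of Wnt receptors on chromosome 3 (132085292 to 132180293), was at 1.90, 0.463, 0.951, 1.24 and 1.75 CPM at day 14 and at 22.8, 16.8, 18.5, 38.6 and 39.3 CPM at day 21. It rose by 4.41 ± 0.40 and 3.73 ± 0.36 (adjusted p = 2.71e-07 and 4.61e-07). Il33, an alarmin cytokine on chromosome 19 (29925114 to 29960718), was at 3.82, 0.695, 2.15, 3.49 and 1.16 CPM and at 54.2, 52.5, 44.7, 58.5 and 55.2 CPM. The day 21 values of Il33 lay close together while those of day 14 spread, and the changes were 4.54 ± 0.61 and 3.17 ± 0.49 (adjusted p = 3.02e-06 and 2.32e-05). Csgalnact1, an enzyme of chondroitin sulfate synthesis, was at 0.370 to 0.932 CPM and 4.39 to 8.71 CPM, a rise of 3.62 ± 0.31 and 3.32 ± 0.28. Raver2, Ccdc170, Rnf125 and Prkar2b, the last a regulatory subunit of protein kinase A, completed the largest increases with GC-adjusted changes of 3.34, 3.33, 3.50 and 3.18. Spic, a transcription factor of red pulp macrophages, was at 0.403, 0.463, 0.829, 0.658 and 0.379 CPM and at 3.05, 3.67, 4.48, 45.8 and 9.78 CPM. Its changes of 4.62 and 3.15 were 3.27 and 1.87 without obese endpoint replicate 4 (adjusted p = 0.00017 and 0.0113).

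**Figure D3:**
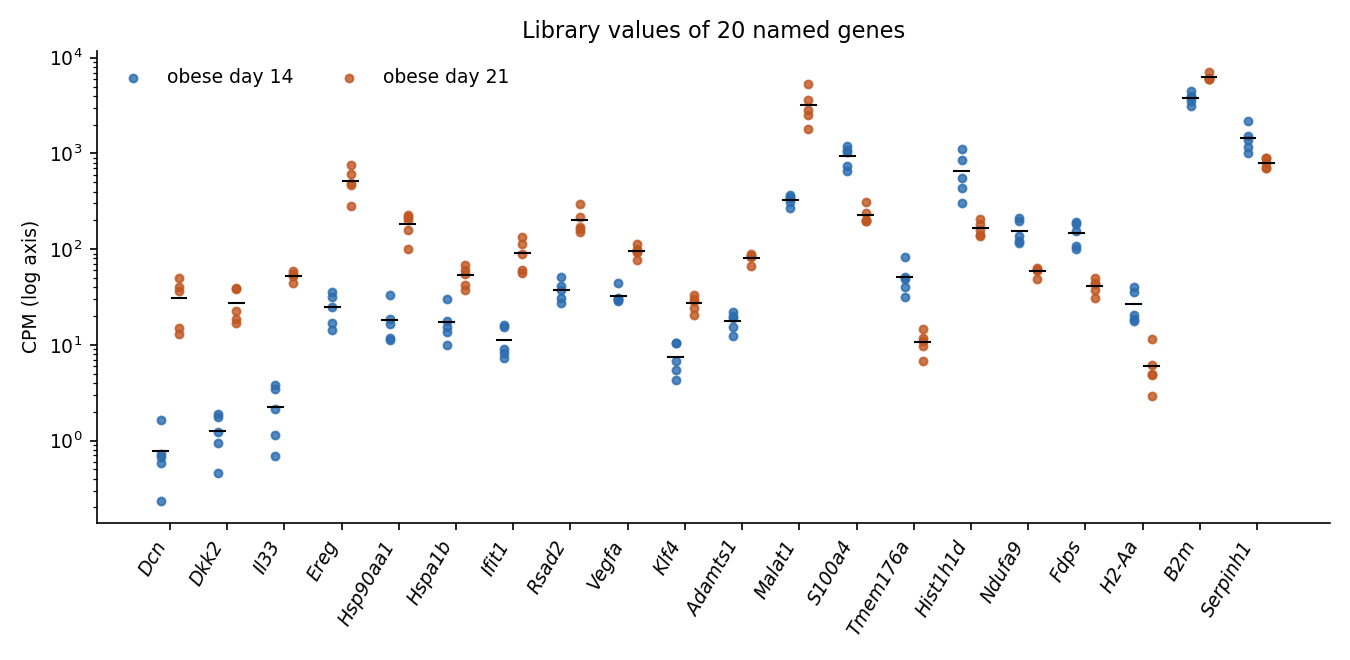
CPM on a log axis (y axis) of 20 genes (x axis) in the 5 obese day 14 and 5 obese day 21 libraries, with 1 point per library and a bar at the mean of each day. The days do not overlap in any of the 20, including B2m and Serpinh1, whose GC-adjusted calls have the opposite sign.

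Many heat shock genes rose. Of 16 tested, 9 rose and 1 fell, beside 27.8% and 12.3% of all genes. Without the adjustment, 9 were called higher and 4 lower. The median log2 change was 1.46 unadjusted, 1.11 adjusted and 0.85 adjusted and rescaled, beside -0.00, 0.28 and 0.02 for all genes. Hsp90aa1, the inducible cytosolic HSP90 chaperone (chromosome 12, 110690605 to 110702728), was at 33.2, 11.3, 16.5, 18.8 and 11.8 CPM at day 14 and at 201, 101, 160, 218 and 230 CPM at day 21. Its day 14 maximum lay well under its day 21 minimum, with changes of 3.31 ± 0.38 and 2.58 ± 0.31 (adjusted p = 6.84e-07 and 1.81e-06). Hspa1b, an inducible HSP70, was at 30.3, 9.96, 17.8, 13.5 and 15.2 CPM and at 69.1, 37.9, 54.6, 61.3 and 42.5 CPM. Its exons have a GC content of 58.1%, and its changes were 1.61 ± 0.31 and 2.77 ± 0.40. Hspa4, an HSP70 cochaperone, rose by 2.57 and 2.04.

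The mitochondrial chaperonin was split. Hspd1 (HSP60) was at 194, 39.5, 55.5, 122 and 95.2 CPM at day 14 and at 457, 371, 428, 407 and 425 CPM at day 21, a rise of 2.04 ± 0.34 and 2.12 ± 0.31 (adjusted p = 2.49e-05 and 1.37e-05). Hspe1, its cochaperonin HSP10, was picked out after its values were seen because it was the 1 member that fell. It was at 289, 412, 376, 283 and 314 CPM and at 218, 240, 238, 211 and 169 CPM, changes of -0.64 ± 0.17 and -1.0 ± 0.19 (adjusted p = 0.00183 and 0.000222). The 2 genes lie head to head on chromosome 1. Each promoter window holds a heat shock element pattern (GAA, any 2 bases, TTC, any 2 bases, GAA), searched on both strands over the 250 bases before the start site. That pattern was present in 2 of the 12 heat shock genes with a RefSeq window (Hspd1 and Hspe1) and in 0.488% of the 10860 tested genes with one. Windows of head-to-head genes can overlap, so 1 site may count for both genes, and this was not tested. A match describes letters and is no evidence of binding.

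Most changes among interferon-stimulated genes were increases. Of 33 tested, 18 rose and 1 fell, beside 27.8% and 12.3% of all genes. Unadjusted, 18 were called higher and 10 lower, adjusted 20 and 2, and rescaled 15 and 5. The median log2 changes were 0.97, 0.88 and, rescaled, 0.61. The first was 0.64 with neither obese midpoint replicate 2 nor 3. The core of the interferon-stimulated response element (GAAA, any 2 bases, GAAA) was searched the same way in RefSeq promoters (GRCm38.p6) and was present in 13 of the 25 list members with a window. It was present in 3.43% of the 10860 tested genes with one. Among the 12 members with a window that rose, 6 held it, and among the other 13, 7 did. The windows of 3 genes that rose, Ifit1, Rsad2 and Gbp3, are shown with that of Isg15, which did not, because Isg15 carries the pattern in the densest array of the 4. They lie at chr19:34640744-34640870 (plus strand), chr12:26456453-26456702 (minus strand), chr3:142559794-142560043 (plus strand) and chr4:156200819-156201068 (minus strand). Each is written 5′ to 3′ toward the start site with matches on either strand in capitals, overlapping matches run together, and only bases outside annotated genes are shown.
Ifit1: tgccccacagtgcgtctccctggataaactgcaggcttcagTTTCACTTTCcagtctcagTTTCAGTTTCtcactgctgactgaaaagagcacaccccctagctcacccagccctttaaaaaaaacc
Rsad2: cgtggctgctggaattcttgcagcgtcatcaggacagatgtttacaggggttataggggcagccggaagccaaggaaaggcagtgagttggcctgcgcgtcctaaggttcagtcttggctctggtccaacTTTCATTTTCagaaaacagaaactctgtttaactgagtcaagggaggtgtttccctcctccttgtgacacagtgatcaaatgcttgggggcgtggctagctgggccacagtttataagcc
Gbp3: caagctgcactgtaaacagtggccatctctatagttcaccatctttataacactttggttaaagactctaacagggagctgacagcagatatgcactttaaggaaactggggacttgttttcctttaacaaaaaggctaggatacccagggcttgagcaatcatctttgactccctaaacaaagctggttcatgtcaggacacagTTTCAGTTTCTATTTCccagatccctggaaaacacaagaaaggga
Isg15: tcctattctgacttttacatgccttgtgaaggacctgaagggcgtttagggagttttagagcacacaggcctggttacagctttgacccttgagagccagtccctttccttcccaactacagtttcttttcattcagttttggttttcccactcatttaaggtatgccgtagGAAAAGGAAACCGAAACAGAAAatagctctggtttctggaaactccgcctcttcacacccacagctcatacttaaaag

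Ifit1, an RNA-binding inhibitor of viral translation, was at 15.2, 8.13, 9.02, 16 and 7.33 CPM at day 14 and at 89.2, 56.6, 60.3, 133 and 112 CPM at day 21. It rose by 3.02 ± 0.33 and 1.69 ± 0.25 (adjusted p = 5.62e-07 and 1.87e-05). Rsad2 (viperin) was at 41.4, 30.7, 37.5, 51.4 and 27.5 CPM and at 170, 164, 153, 299 and 218 CPM, changes of 2.41 ± 0.26 and 1.33 ± 0.20. Gbp3, a guanylate-binding GTPase, was at 24.7, 5.26, 8.66, 13 and 7.26 CPM and at 103, 68, 69.6, 110 and 99.7 CPM, changes of 2.93 ± 0.44 and 2.63 ± 0.38. In all 3 the days were fully separated. Parp9, a cofactor of interferon signaling, rose by 2.19 and 2.15. Isg15, the ubiquitin-like modifier, was picked out after its values were seen. It was at 37.1, 49.7, 60.5, 44.4 and 36.5 CPM at day 14 and at 20.9, 25.8, 25.4, 27.5 and 22.4 CPM at day 21, and was called lower only without the adjustment (-0.90 ± 0.30, adjusted p = 0.00999, and -0.09 ± 0.29, adjusted p = 0.815). Isg15 and Ifit1, which both hold the pattern upstream, had unadjusted changes of opposite sign. Of 15 MHC class I presentation genes tested, 1 rose and 1 fell, beside 27.8% and 12.3% of all genes.

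The calls of immediate early genes changed with the adjustment. Of 23 tested, 9 were called higher and 3 lower without it, 21 higher and 0 lower with it, and 9 rose in both. Their median change was 0.07 unadjusted, -0.10 without obese midpoint replicate 1, 1.04 adjusted and 0.77 rescaled, and their median GC was 54.6%. Klf4, a zinc finger transcription factor, was at 10.4, 4.31, 6.85, 10.4 and 5.44 CPM at day 14 and at 32.9, 28.5, 20.5, 24.2 and 30.0 CPM at day 21. It rose by 1.86 ± 0.23 and 2.84 ± 0.32 (adjusted p = 1.51e-06 and 1.14e-06). Myc was at 306 to 416 CPM and 483 to 565 CPM, with changes of 0.53 ± 0.14 and 1.53 ± 0.18 (adjusted p = 0.00169 and 1.99e-06). Klf6 and Egr3 rose by 1.44 and 2.01 after adjustment.

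Several ligands of the EGF receptor family rose. Of 10 tested genes of the family, 4 rose and 0 fell, beside 27.8% and 12.3% of all genes. The list median was 1.13 unadjusted, 0.33 adjusted and 0.08 rescaled, beside -0.00, 0.28 and 0.02 for all genes. After adjustment the list as a whole was thus near all genes. Ereg (epiregulin, chromosome 5, 91074617 to 91093649) was at 35.3, 14.4, 25.0, 31.7 and 17.1 CPM at day 14 and at 491, 280, 467, 755 and 610 CPM at day 21. The lowest day 21 value was several times the highest day 14 value, and the changes were 4.4 ± 0.39 and 2.48 ± 0.25 (adjusted p = 2.69e-07 and 4.91e-07). Areg (amphiregulin) was at 31.5 to 80.7 CPM and 135 to 191 CPM, changes of 1.51 ± 0.30 and 1.53 ± 0.27. Btc (betacellulin) rose from 0.232 to 2.23 CPM to 6.98 to 15 CPM, and Nrg4 rose by 2.06 and 1.55 at no more than 1.29 CPM in any library, but was not called after rescaling (adjusted p = 0.0517). Its GC-adjusted call was also lost on leaving out midpoint replicate 3 (adjusted p = 0.0518), 4 (0.0531) or 5 (0.0599) or endpoint replicate 5 (0.0703). Erbb2, a receptor, was called lower without the adjustment (-1.59, adjusted p = 6.45e-06) and not with it (-0.23, adjusted p = 0.12).

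Among secreted signals and proteases, 8 of 26 chemokine and cytokine genes rose and 0 fell, and 6 of 17 metalloproteinases and inhibitors rose and 0 fell. Of all genes tested, 27.8% rose and 12.3% fell, so the shares that rose were near that of all genes. Il6 was at 0.0463 to 0.293 CPM at day 14 and 2.82 to 6.55 CPM at day 21, a rise of 4.38 ± 0.39 and 2.51 ± 0.31 (adjusted p = 2.69e-07 and 2.92e-06). Lif, a cytokine of the same family, was at 3.97 to 5.61 and 9.43 to 14.4 CPM, changes of 1.21 ± 0.22 and 2.16 ± 0.20. Adamts1, a secreted protease of versican and other proteoglycans, was at 22.0, 12.3, 20.1, 19.2 and 15.5 CPM and at 84.9, 67.1, 88.6, 82.0 and 85.4 CPM. Its changes of 2.19 ± 0.19 and 2.52 ± 0.20 were nearly the same in both fits (adjusted p = 2.57e-07 and 1.66e-07). Mmp14, a membrane-bound collagenase, was at 50.9 to 116 and 153 to 203 CPM and rose by 1.12 ± 0.20 and 2.16 ± 0.30.

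Of 21 hypoxia-response genes, 6 rose and 2 fell, shares near the 27.8% and 12.3% of all genes, and the median changes were 0.36, 0.74 and, rescaled, 0.49. Vegfa, the main angiogenic growth factor, was at 44.1, 30.0, 30.9, 29.5 and 28.9 CPM at day 14 and at 112, 99.7, 93.9, 94.2 and 76.2 CPM at day 21. It rose by 1.54 ± 0.22 and 2.22 ± 0.25 (adjusted p = 6.36e-06 and 1.13e-06). Kdm3a, a histone demethylase induced by low oxygen, rose by 2.10 and 1.11, and Mxi1, an antagonist of Myc, by 1.70 and 1.91. Of 20 glycolysis genes, 2 rose and 5 fell, and their median was -0.96 unadjusted, 0.01 adjusted and -0.26 rescaled. Hk2, hexokinase, rose by 0.46 and 1.17, but its unadjusted call was lost on leaving out midpoint replicate 2 (adjusted p = 0.0593) or 3 (0.0723) or endpoint replicate 1 (0.0609). Pfkp, a phosphofructokinase, fell by 0.71 and 1.04. In the unfolded protein response, which expands folding capacity of the endoplasmic reticulum, 7 of 18 genes rose and 1 fell. Hspa5 (BiP) was at 147 to 489 CPM and 1050 to 1377 CPM and rose by 2.05 ± 0.27 and 1.38 ± 0.18. The median of that list was 0.38 unadjusted, 0.23 adjusted and -0.03 rescaled, and the first was 0.13 with neither midpoint replicate 2 nor 3. Of 19 targets of ATF4, the factor of the integrated stress response, 0 rose and 3 fell.

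Genes of oxidative phosphorylation fell in large numbers. Of 38 nuclear genes of complex I, 28 fell and 0 rose, beside 12.3% and 27.8% of all genes. Their median changes were -1.20, -0.68 and, rescaled, -0.95. Of 40 nuclear genes of complexes II to V, 25 fell and 1 rose, with medians of -1.09, -0.70 and -0.96. Ndufa9, a complex I subunit, was at 122, 209, 196, 116 and 137 CPM at day 14 and at 59.9, 63.5, 60.8, 60.9 and 48.5 CPM at day 21. The days were separated, and the changes were -1.41 ± 0.18 and -1.94 ± 0.24 (adjusted p = 2.12e-06 and 2.38e-06). The changes of Ndufa4 were -0.89 and -2.67, and Uqcrc2, a core subunit of complex III, fell by 0.46 and 1.29. The messages of the mitochondrial genome did not share this pattern without the adjustment. Of 12 tested, 4 were called higher and 1 lower unadjusted, 0 higher and 9 lower adjusted, and the median went from 0.41 to -1.56. The adjusted median was -0.52 when genes of low count were kept and -2.05 with a filter of 5 CPM. The median GC of these 12 genes was 37.4%. mt-Co1, the core subunit of complex IV, was at 7246 to 13310 CPM and 21750 to 26500 CPM, with changes of 1.16 ± 0.22 and -0.78 ± 0.26. Only mt-Nd1 was called lower in both fits. It was at 2343 to 3366 CPM at day 21 and 3273 to 6482 CPM at day 14, the days overlapped, and its unadjusted call (-0.65, adjusted p = 0.0344) was lost when midpoint replicate 2 (adjusted p = 0.111) or 5 (0.0606) of the obese tumors, or their endpoint replicate 2 (0.0676), 4 (0.0701) or 5 (0.0589), was left out.

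Ribosome and proteasome genes also fell. Of 83 cytoplasmic ribosomal protein genes, 42 fell and 1 rose, beside 12.3% and 27.8% of all genes. Their medians were -0.93, -0.43 and -0.70. The adjusted median was -0.18 with neither obese midpoint replicate 2 nor 3. Of 76 mitochondrial ribosomal protein genes, 36 fell and 3 rose, and of 34 proteasome genes, 12 fell and 3 rose. Psmb7, a catalytic subunit of the proteasome, was at 361 to 523 CPM at day 14 and 177 to 244 CPM at day 21 and fell by 1.0 ± 0.16 and 2.61 ± 0.25 (adjusted p = 1.55e-05 and 4.37e-07). Rps20 was at 278 to 560 and 150 to 220 CPM and fell by 1.07 and 2.58. Ribosomal protein genes have many processed copies, so reads may have been divided among them by the counting. The median exon length was 1230 bases for complex I genes and 1444 bases for cytoplasmic ribosomal protein genes, against 3062 bases for all genes. With exon length modelled beside GC their medians were -0.54 and -0.31.

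**Figure D4:**
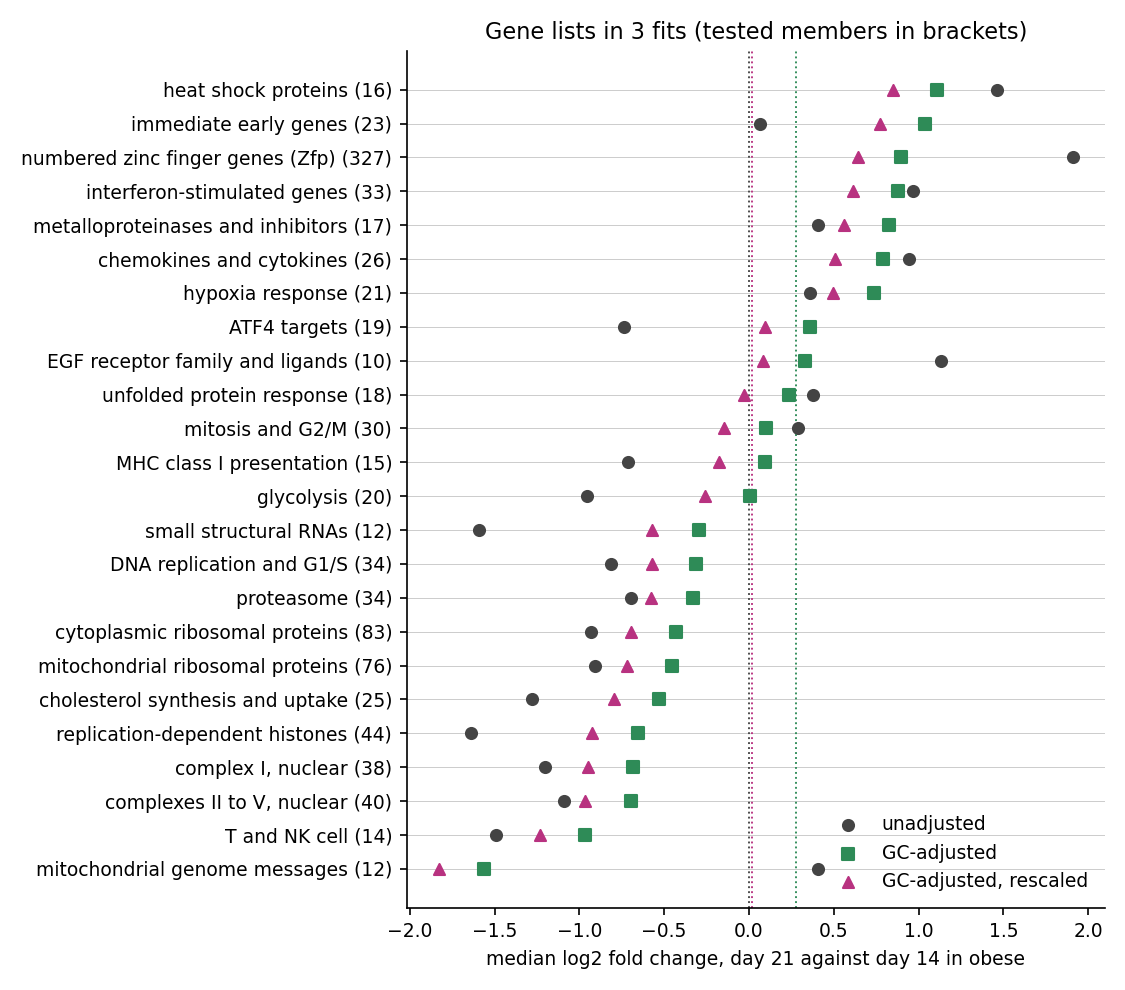
Median log2 fold change of day 21 against day 14 (x axis) of 24 gene lists (y axis, tested members in brackets) in the unadjusted, GC-adjusted and rescaled fits, with dotted lines at the median of all genes in each fit. Heat shock, interferon-stimulated and zinc finger genes lie to the right of the dotted lines in all 3 fits, oxidative phosphorylation, histone and cholesterol genes to the left in all 3, and messages of the mitochondrial genome change side (0.41 to -1.56).

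Histone and short structural RNA genes were among the largest decreases. Of 44 replication-dependent histone genes, whose messages lack a poly(A) tail and are made in S phase, 21 fell and 0 rose, with medians of -1.64, -0.65 and -0.92. Among all genes, 12.3% fell and 27.8% rose. Hist1h1d, a linker histone on chromosome 13 (23555032 to 23558852), was at 440, 1103, 851, 302 and 551 CPM at day 14 and at 160, 206, 181, 141 and 138 CPM at day 21. It fell by 1.98 ± 0.32 and 3.97 ± 0.50 (adjusted p = 2.2e-05 and 3.21e-06). Hist4h4 and Hist1h2be fell by 2.18 and 1.90 unadjusted. Rny1, a Y RNA of the Ro ribonucleoprotein on chromosome 6 (47788069 to 47788180), was at 2.39, 10.1, 5.07, 2.47 and 2.94 CPM and at 0.846, 1.09, 1.04, 0.180 and 0.934 CPM. Its changes were -2.47 ± 0.56 and -3.88 ± 0.64, the second -3.14 without obese midpoint replicate 2. Rny3 fell by 2.40 and 3.44, and Rnu3a, a U3 small nucleolar RNA, by 1.95 and 2.65. Of 12 small structural RNA genes, 4 fell and 0 rose. In obese midpoint replicates 2 and 3, which had the highest values of Hist1h1d and Rny1, the GC slope and the share of Rn7sk were also highest, and the part of these measures was not tested. Without both libraries the unadjusted median of the histones was -1.02. Malat1, a nuclear long noncoding RNA that also lacks a poly(A) tail, went the other way, from 368, 314, 348, 344 and 270 CPM to 2848, 1786, 2510, 3634 and 5279 CPM (3.29 ± 0.34 and 1.72 ± 0.28, adjusted p = 4.28e-07 and 3.74e-05).

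Cell cycle genes were divided. Of 34 genes of DNA replication and the G1/S transition, 4 rose and 11 fell, and of 30 genes of mitosis and the G2/M transition, 13 rose and 8 fell. Among all genes, 27.8% rose and 12.3% fell. The median of the second list was 0.29 unadjusted, 0.10 adjusted and -0.15 rescaled. Rfc3, a clamp loader subunit, was at 44.3 to 59.9 CPM at day 14 and 21.4 to 32.0 CPM at day 21 and fell by 0.96 ± 0.16 and 2.10 ± 0.22. Mcm4, a subunit of the replicative helicase, was at 14.6 to 51.3 and 86.8 to 107 CPM and rose by 1.79 ± 0.27 and 1.08 ± 0.18. Kif11, a mitotic kinesin, was at 2.41 to 13.5 and 35.5 to 75.4 CPM and rose by 3.19 and 1.69, while Cenpa, the centromeric histone, fell by 0.76 and 0.92.

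Cholesterol synthesis and uptake genes fell: 15 of 25 fell and 1 rose, beside 12.3% and 27.8% of all genes. Their medians were -1.28, -0.53 and, rescaled, -0.80. Fdps, which makes farnesyl pyrophosphate, was at 108, 184, 153, 100 and 190 CPM at day 14 and at 43.2, 50.5, 44, 37.2 and 31.0 CPM at day 21. It fell by 1.84 ± 0.25 and 1.32 ± 0.21 (adjusted p = 3.12e-06 and 3.17e-05). Dhcr7, the last reductase of the pathway, was at 40.7 to 66.9 and 15.3 to 22.2 CPM, and Ebp, a sterol isomerase, at 40.1 to 70.6 and 16.2 to 20.7 CPM. In all 3 genes the days were separated.

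**Figure D5:**
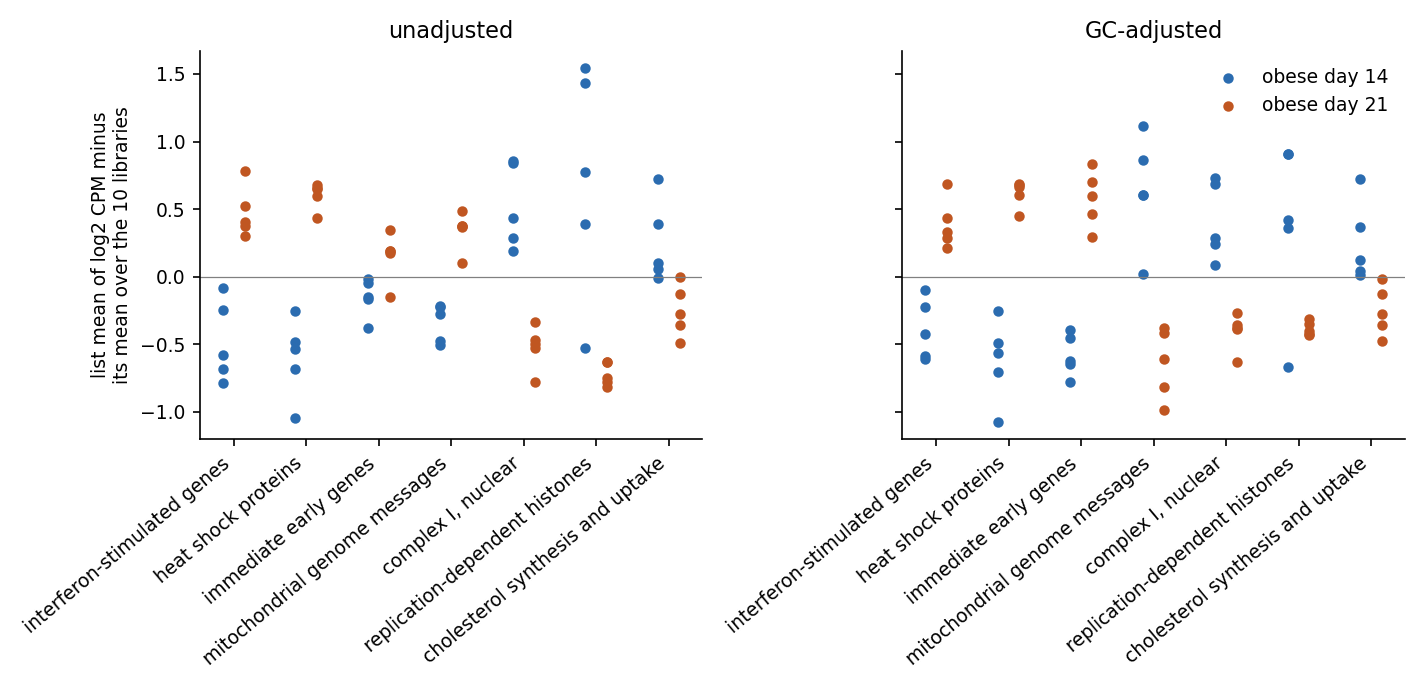
Mean log2 CPM of 7 gene lists in each of the 10 obese libraries minus the mean over these libraries (y axis), unadjusted on the left and GC-adjusted on the right, with 1 point per library. The days are separated in both panels for interferon-stimulated, heat shock and complex I genes, whereas messages of the mitochondrial genome change sides between the panels. After adjustment, the histone mean of day 14 replicate 4 (3.42 before centring) lies below all day 21 libraries (3.66 to 3.78).

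Several single genes fell by a similar amount in both fits. S100a4, a calcium-binding protein linked to cell motility (chromosome 3, 90603770 to 90606045), was at 656, 1199, 1085, 735 and 1047 CPM at day 14 and at 195, 308, 199, 236 and 204 CPM at day 21. Its changes were -2.05 ± 0.35 and -1.90 ± 0.35 (adjusted p = 3.59e-05 and 0.000147). Tmem176a, a membrane protein of myeloid and tumor cells (chromosome 6, 48841483 to 48845364), was at 31.3, 82.5, 49.2, 40.4 and 50.6 CPM and at 6.77, 14.7, 11.9, 10.9 and 9.74 CPM, with -2.24 in both fits. Acta2, smooth muscle actin, fell by 1.77 and 1.76, from 147 to 420 CPM to 48.4 to 98.8 CPM. Zeb2, a repressor of epithelial genes, rose by 2.99 and 1.81, from 33.5 to 78.5 CPM to 215 to 506 CPM. The zinc finger genes with Zfp numbers, most of them presumed transcription factors, were the longest list. Of 327, 168 rose and 7 fell, beside 27.8% and 12.3% of all genes, with medians of 1.91, 0.90 and, rescaled, 0.64. Zfp652 was at 14.3 to 29.8 and 65.4 to 84.7 CPM and rose by 1.81 ± 0.19 and 2.21 ± 0.20.

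Immune genes moved in different directions. H2-Aa, an MHC class II chain, was at 35.9, 18.5, 40.2, 17.7 and 20.5 CPM at day 14 and at 4.82, 6.18, 2.92, 11.4 and 4.93 CPM at day 21, a fall of 2.14 ± 0.44 and 2.49 ± 0.44 (adjusted p = 0.000251 and 0.000101). The 11 dendritic cell and MHC class II markers summed to 98.4 to 223 CPM and 28.6 to 86.5 CPM, and 3 fell and 1, Clec9a, rose. Of 14 T and NK cell markers, 6 fell and 1 rose, at summed levels of 9.77 to 24.8 and 8.88 to 20.3 CPM. Among all genes, 12.3% fell and 27.8% rose. Ly6c2, a monocyte marker, fell by 1.94 ± 0.45 and 1.98 ± 0.46, from 12.2 to 74.1 CPM to 4.89 to 20.2 CPM, and the days overlapped. Ptprc (CD45) was at 1.35, 0.672, 1.58, 1.22 and 0.867 CPM at day 14 and at 6.90, 4.41, 6.36, 29.6 and 14.0 CPM at day 21. It rose by 3.42 ± 0.50 and 1.35 ± 0.39 (adjusted p = 7.66e-06 and 0.0062), and the first was 2.79 without obese endpoint replicate 4. Itgam, the integrin CD11b, was at 5.35 to 11.4 and 11 to 70.4 CPM and rose by 1.84 and 1.88, or 1.07 and 1.09 without that library. Macrophage markers summed to 225 to 452 CPM and 149 to 803 CPM. Obese endpoint replicate 4 had the highest day 21 CPM of every gene on the macrophage list, and the sum was not taken without it. Among the 16 genes on that list, 2 rose, Itgam included, and 1, Ly6c2, fell. Ptprc was the only 1 of the 9 pan-leukocyte genes that rose, and 1 other fell. Without the adjustment, 3 of these 9 were called higher and 4 lower. Across all genes, 4499 genes rose when that mean of pan-leukocyte markers entered both fits as a covariate, and 2008 fell. This covariate differed between the obese days by only 0.038 on the log2 scale, so it could hardly move the contrast of days. These counts are thus no check on leukocyte content, and the part of leukocytes in the changes was not tested.

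The same contrast was made in lean tumors, which share no library with it but were part of the same fits. The GC slope of the lean libraries was 0.130 to 0.476 at day 14 and -0.893 to -0.0508 at day 21. There 30.9% of the 16352 genes were called without and 24.3% with the adjustment. Of the 4539 genes that rose in obese tumors, 4423 had a positive unadjusted change in lean tumors, and of the 2008 that fell, 1907 had a negative one. The median unadjusted change of all genes in lean tumors was 0.04. The GC slope differed between the lean days too, so these shared signs and the GC trend could not be told apart. Signs in the GC-adjusted lean fit were not counted. Interferon-stimulated genes had medians of 0.97 and 0.88 in obese tumors but -0.30 and -0.18 in lean tumors (unadjusted and adjusted). The difference between the obese and the lean contrast, tested as an interaction with edgeR's quasi-likelihood test, was called for 0 genes in either fit (0% of the genes tested in each), at smallest adjusted p of 0.0983 and 0.138, while 5451 and 3247 genes had an unadjusted p under 0.05. DESeq2 called 1557 and 610 genes and limma-voom 5119 and 1746. Without obese midpoint replicate 1, the obese day 14 library with the flattest GC slope, edgeR called 5656 and 1449. S100a4 changed by -0.13 in lean tumors, Spic by 0.96, Lif by 0.09 and Ereg by 3.18, all unadjusted. The call of a difference between diets thus changed with the tool and with 1 library.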

How the data were processed

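RNA of sorted tumor cells was sequenced in 19 libraries. The deposited table holds raw counts per gene, whole numbers that were not normalized, per the file headers and values. TopHat, DESeq and the build mm10 are named in the submitters' processing notes; for the counting tool, its strand setting and the annotation, the sources used here give nothing. Histones, ribosomal proteins and small RNAs have close copies, among which reads may be divided.

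Counts of 18 libraries, without the partial lean endpoint replicate 4, were fitted with edgeR 4.0.16 (R 4.3.3) with 4 group means, its expression filter, TMM scaling, the quasi-likelihood test and Benjamini-Hochberg adjustment at 0.05. The SE of a log2 change is its absolute value over the square root of the test's F. It thus rests on a spread estimated over all 18 libraries. A second fit added offsets that remove, in each library, a natural spline with 5 degrees of freedom on the GC content of merged exons (GENCODE M21). limma 3.58.1 and DESeq2 1.42.0 were alternatives. Code was tested on simulated data. Labels do not say that replicates came from separate mice, so p-values measure the spread between these samples. The 20 replicate pairs of the obese groups differed by more than sampling noise (smallest chi-square per degree of freedom 36.4).

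Named genes were the 10 largest increases and 10 largest decreases called alike in both fits at a mean of at least 1 CPM, ranked by the smaller change, the 3 most abundant called oppositely in each direction, up to 4 members of each list with the smallest adjusted-fit p, and Ptprc, Pecam1, Col1a1, Krt8 and Krt18. Members and lists were chosen with earlier results of these data known. Promoter sequences are from RefSeq.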

Additional observations from a re-analysis of the deposited data

Results flagged for a closer look

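In groups of 5 libraries, 128 were examined for a library far from the other 4, and 12 were marked; chance marks about 1 in 20 groups. Of the 12, 6 were in obese endpoint replicate 4. In it, Spic was at 45.8 CPM (next library 9.78), Itgam at 70.4 (22.4), Lpl, lipoprotein lipase, at 12.3 (2.92), Il6 at 6.55 (3.72), B2m at 7054 (6125) and Rny1 at 0.18 (0.846). The part of other cells in this library was not tested.

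In obese endpoint replicate 5, Ndufa9 was at 48.5 CPM (next 59.9) and Zfp652 at 84.7 (70.6). Lif was at 14.4 CPM in obese endpoint replicate 2 (next 10.7), and Vegfa at 44.1 CPM in obese midpoint replicate 1 (next 30.9). In obese midpoint replicate 3, Col1a1 was at 16.9 CPM (next 10.1) and the pan-leukocyte mean at 4.64 log2 CPM (next 4.09).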

How the results depend on the processing

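Alternatives with recomputed scaling after adjustment, without obese midpoint replicates 2 and 3, and others named as such were chosen after seeing the data. With all 19 libraries, including the partial one, 4213 genes were called unadjusted and 2197 adjusted, of which 1343 rose and 207 fell in both. With the 10 obese libraries fitted alone, 11328 of 15266 genes were called unadjusted and 8512 adjusted, and 4107 rose and 1832 fell. Genes that fell numbered 1161 with a filter of 5 CPM and 3271 when the GC-adjusted fit was rescaled. Leaving out each replicate gave 11563 to 12390 unadjusted and 8266 to 9374 adjusted calls, 4147 to 4732 that rose, 1742 to 2045 that fell and 0 to 5656 and 0 to 1449 interaction calls. Leaving out each replicate also put the GC slope difference between -1.88 and -1.57; it was -1.98 over genes of at least 5 CPM. The interaction gave 1557 and 610 calls with DESeq2 and 5119 and 1746 with limma-voom. The cause was not tested.

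Whether replicate numbers pair the samples cannot be decided from 5 correlations. As deviations from their group means, same-numbered libraries correlated at 0.187, 0.276, 0.061, -0.00379 and -0.127. After adjustment the values were 0.19, 0.0616, 0.0339, -0.0763 and -0.0864. The best unadjusted day 21 match bore the same number for replicates 1 and 2 but not for 3, 4 and 5. With the number as a replicate block, 11192 and 7996 genes were called, and 4033 rose and 1603 fell.

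The GC-adjusted median of the unfolded protein response was -0.0273 after rescaling, that of small structural RNAs 0.0735 with the 5 CPM filter and 0.37 with a straight-line GC term, which also put Terc at 1.03.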

Other observations

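Of all genes tested, 27.8% rose and 12.3% fell. Of 12 fatty acid uptake and activation genes 5 rose and 1 fell, whereas of 20 fatty acid oxidation genes 2 rose and 7 fell and of 14 synthesis and desaturation genes 2 rose and 4 fell. Of 29 genes of the vacuolar ATPase and lysosome, 2 rose and 9 fell. Among 14 iron handling genes 6 rose and 2 fell, among 24 Wnt pathway genes 7 rose and 1 fell, and among 19 genes of insulin, leptin and adiponectin signaling 6 rose and 0 fell; the shares of the last 2 groups that rose were near that of all genes. Of 30 collagen genes 6 rose and 2 fell, and their median was -0.29 unadjusted, 0.65 adjusted and 0.39 rescaled. Of 19 cytosolic aminoacyl-tRNA synthetase genes 7 rose and 4 fell.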
